A study of Mus musculus with 15 samples.

Results

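The response of mouse pancreatic duct organoids to 24 h of doxycycline was read by comparing the 24 h library of each organoid line with the 0 h library of the same line. This comparison uses 10 of the 15 libraries of the study, from all 5 lines (A217, A218, A220, A223 and A225), each paired with itself, with both genotypes pooled. The members are chosen by the labelled hours of doxycycline alone. Lines A217, A220 and A225 are labelled CA19-9 inducible and carry every allele that doxycycline needs to switch on synthesis of CA19-9, a sialylated Lewis glycan. Lines A218 and A223 are genetic negative controls that lack an allele this requires. Per the labels' protocols, all organoids came from normal pancreatic ducts and grew in Matrigel, in medium with EGF, FGF-10, gastrin, Noggin, R-spondin 1, nicotinamide, N-acetylcysteine, B27 and A 83-01, an inhibitor of TGF-β receptors. The medium was renewed 24 h before harvest in every culture, and doxycycline at 1 µg/ml was added so that all cultures were collected together. The labels name no vehicle for the 0 h cultures, and give neither the number of animals nor the cell culture behind each library. The p-values therefore weigh the mean change against how far changes with time varied between these lines, with 1 library per line and hour. That variation was estimated from all 15 libraries, those at 4 h included.

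Doxycycline is a tetracycline antibiotic that mouse geneticists use to switch on transgenes through the reverse tetracycline activator. It also binds bacterial ribosomes and can slow translation in mitochondria, whose ribosomes are of bacterial descent. A duct organoid is a hollow ball of polarised, dividing epithelium, which in the pancreas carries bicarbonate and water, lines the lumen with mucin and can act as a source of cytokines. The pooled comparison describes what the lines shared, whatever their genotype, and doxycycline and the handling at its addition cannot be told apart.

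The estimated counts of the 15 libraries summed to between 47915632 and 59411540. Levels are given as counts per 1000000 (CPM) scaled with TMM, compared only within a gene, and 5 values in a row stand in the order A217, A218, A220, A223 and A225. Sums over marker lists and over low-level genes are per total count, without TMM. TMM factors ran from 1.002 to 1.011 at 0 h and from 0.971 to 0.982 at 24 h, so scaling would raise the 24 h sums slightly. A pair such as "by x ± y" after a gene is its log2 change at 24 h against 0 h with the standard error, and every gene given so was called unless its adjusted p is printed as a miss. Duct markers were high: all 12 genes of that list were tested, and their summed level ran from 11283 to 13648 CPM at 0 h and from 14539 to 17060 CPM at 24 h. The 5 lists of other cells were low. Acinar markers summed to at most 2.34 CPM, endocrine markers to at most 0.223 CPM with 6 of 8 genes at 0 in all 10 libraries, fibroblast and stellate markers to at most 5.68 CPM, endothelial markers to at most 6.35 CPM and immune markers to at most 2.93 CPM. Few of their genes were tested: the 1 fibroblast and stellate gene and 1 of 2 endothelial genes rose. Of 3 immune genes 1 fell, and the 1 acinar gene was not called. Genes with at least 1 count numbered 19875 to 20534 per library at 0 h and 19529 to 19980 at 24 h, and were fewer at 24 h in 5 of 5 lines (exact two-sided sign-flip test over the 5 pairs, p = 0.0625, the smallest it can give).

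After 24 h, many genes had moved, most of them a little. Oprd1, Vstm2b, Nmu, Gstm5, Angptl4 and Mylk rose several-fold, and Ankrd37 and Slc16a3 fell. Among smaller shifts, most tested genes of the lists of DNA replication, mitosis, histones and ribosome assembly were lower, and most of inflammation, zinc handling, keratins, lysosomes and the actomyosin cortex higher. Of 15411 genes tested with edgeR's quasi-likelihood F test, 5981 (38.8%) were called at an adjusted p below 0.05, 3236 of them higher (21.0%) and 2745 lower (17.8%). The counts of called list members below are to be read against these 21.0% and 17.8%. The median size of a called change was 0.23 on the log2 scale, 87.4% of called genes moved by less than 1.5-fold, and 237 by more than 2-fold. Of the called genes, 5289 (88.4%) had the same sign in all 5 lines, against 41.8% of the tested genes. Calling favours genes whose lines agree, and the tested genes include the called ones, so this contrast is no separate evidence of a shared response. Without pairing by line, the same test called 3132.

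**Figure D1:**
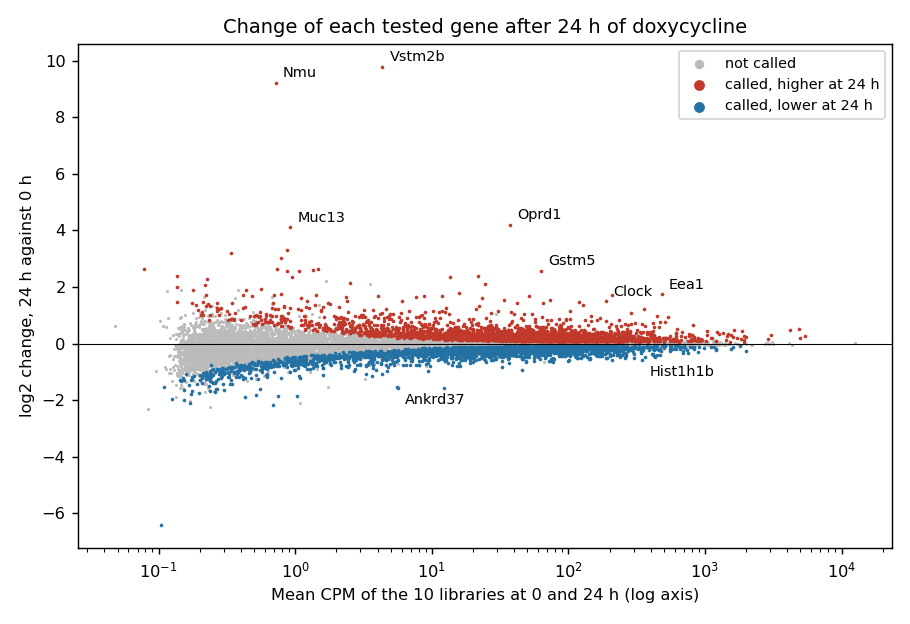
Each point is 1 of 15411 tested genes, with its mean level in CPM over the 10 libraries on a log axis and its log2 change at 24 h against 0 h, coloured by whether edgeR's adjusted p was below 0.05. Called genes form a thin band on both sides of 0, and above a mean of 1 CPM the changes over 2-fold were mostly rises (72 against 10 falls).

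Large falls lay among genes of very low level. Of the 111 falls of more than 2-fold, 101 were in genes with a mean under 1 CPM, against 54 of the 126 rises. The summed level of these low genes, per total count without TMM, was 1383 to 1502 CPM at 0 h and 1233 to 1301 CPM at 24 h. It was lower in 5 of 5 lines (exact two-sided sign-flip test, p = 0.0625, the smallest possible with 5 pairs). At any size of change, 258 of 3239 genes under 1 CPM were called lower and 103 called higher. In genes above 100 CPM the balance was the opposite, with 855 of 2441 called higher and 491 called lower, again at any size. The part of the low-level sum in the falls of single low genes was not tested.

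Genes of the cell cycle fell as a group. Copying the genome needs origin licensing (Orc1, Cdc6, Cdt1 and the MCM helicase), polymerases and clamp loaders (Prim1, Pola2, the Rfc subunits) and nucleotide supply (Rrm2, Tyms), and histones are made in the same phase to package the copy. Most genes of these groups fell. In the list of DNA replication genes 36 of 37 fell and none rose (median log2 change -0.31, against -0.00369 over all tested genes). In the list of mitosis genes all 34 fell (median -0.24), and of 66 tested replication-dependent histone genes 64 fell (median -0.43). These shares stand against the 17.8% of all tested genes that fell. In such bulk libraries fewer cells in a phase and less RNA per cell cannot be told apart. Unpaired, the test called 26, 22 and 51 of these genes lower, and leaving out any 1 line left 32 to 36, 32 to 34 and 62 to 64.

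Cdc6 (ENSMUSG00000017499.15, chromosome 11, 98907801 to 98923940), which loads the MCM helicase onto origins, stood at 58.3, 54.9, 53.3, 53.9 and 52.5 CPM at 0 h. After 24 h it stood at 49.2, 37.4, 33.3, 35.8 and 34.3 CPM. The 24 h values all lay below the 0 h values, with A217 highest of them, and the log2 change was -0.53 ± 0.05 (SE, edgeR adjusted p = 2.27e-06). Its level at 4 h was on average 43.7 CPM, between the other times. Orc1, a subunit of the origin recognition complex, fell from 17.6 ± 1.47 to 12.4 ± 1.42 CPM (SD, n = 5). Fen1, the flap nuclease that finishes lagging strand fragments, changed by -0.40 ± 0.04 and Prim1, the catalytic primase subunit, by -0.40 ± 0.04. Mcm10, which activates the helicase, changed by -0.53, and Uhrf1, which keeps DNA methylation on the new strand, by -0.41. Gins4, a subunit of the helicase complex, was the exception at -0.04 (edgeR adjusted p = 0.351).

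Mitosis genes moved less than replication genes in the size of their medians, though the difference between the lists was not tested. Top2a, the topoisomerase that untangles sister chromatids, stood at 915, 849.8, 763, 812 and 842 CPM at 0 h and at 831, 617, 597, 608 and 688 CPM at 24 h. The largest value of the 24 h group, in A217, lay within the range of the 0 h group, so the groups overlapped although every line fell (-0.33 ± 0.04, edgeR adjusted p = 2.65e-05). Aurkb, the kinase of the chromosomal passenger complex, did not overlap: it went from 96.5 to 103 to 70.5 to 89.9 CPM (-0.39 ± 0.04). Cdca8, of the same complex, changed by -0.34 ± 0.04 and the checkpoint kinase Bub1b by -0.36 ± 0.05. The proliferation marker Mki67 changed by -0.23 and Foxm1, the transcription factor of the G2 phase, by -0.28.

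Promoters of mitosis genes often hold a cell cycle homology region, the letters TTTGAA, where repressor and activator complexes of the cell cycle bind. RefSeq promoter windows of GRCm38.p6, 250 bases before to 50 after a start site, were matched for 29 of the 34 mitosis genes, and 22 of those (75.9%) held TTTGAA on either strand. Over the 11080 tested genes with a window, 15.1% held it. The replication genes, which fell as well, held it in 5 of 30 windows (16.7%). The following stretches are shown because their genes fell together and each holds the motif, in capitals, before the start site, with 30 bases on either side. They are the 4 called mitosis genes of smallest adjusted p with a match outside any exon of GENCODE M21, and are given 5′ to 3′ on the strand of the gene, which is the minus strand for all 4. TTCAAA is the same motif read on the opposite strand. The capitals mark 1 copy in each stretch, and that of Mki67 holds another in lower case.

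Top2a: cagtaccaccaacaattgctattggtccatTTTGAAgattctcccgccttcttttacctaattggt
Cdk1: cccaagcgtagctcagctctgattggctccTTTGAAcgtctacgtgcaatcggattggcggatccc
Mki67: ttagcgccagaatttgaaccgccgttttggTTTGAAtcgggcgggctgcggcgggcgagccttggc
Kif2c: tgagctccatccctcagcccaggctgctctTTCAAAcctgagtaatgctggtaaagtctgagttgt

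They lie at chr11:99024333-99024398, chr10:69352948-69353013, chr7:135716442-135716507 and chr4:117178840-117178905, and the motif starts 179, 71, 98 and 103 bases before the start site. Cdk1, the kinase that drives entry into mitosis, changed by -0.22 and Kif2c, a microtubule depolymerase at centromeres, by -0.25, both lower in 5 of 5 lines. A match is a description of the letters and not a bound site.

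Histone genes had the lower median over the pooled lines, a difference between lists that was not tested and that A217 did not show. Hist1h1b, a linker histone of the large cluster on chromosome 13, stood at 438, 425, 435, 423 and 363 CPM at 0 h and at 373, 297, 248, 255 and 228 CPM at 24 h. Only A217 kept a value at 24 h inside the 0 h range, and the log2 change was -0.59 ± 0.08 (edgeR adjusted p = 2.48e-05). Hist1h2bb changed by -0.59 ± 0.06, Hist1h3d by -0.62 ± 0.06 and Hist2h3c1, on chromosome 3, by -0.92 ± 0.13. Copies of a histone class are near-identical, so how the estimated counts divide among them is uncertain, and their fall is better read over the list. Within lines, the median histone change was -0.11, -0.38, -0.59, -0.49 and -0.65, and that of the replication genes was -0.15, -0.36, -0.36, -0.33 and -0.30. A217 had the smallest fall of the 5 lines in both lists and in mitosis (-0.12, -0.27, -0.33, -0.28 and -0.20).

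**Figure D2:**
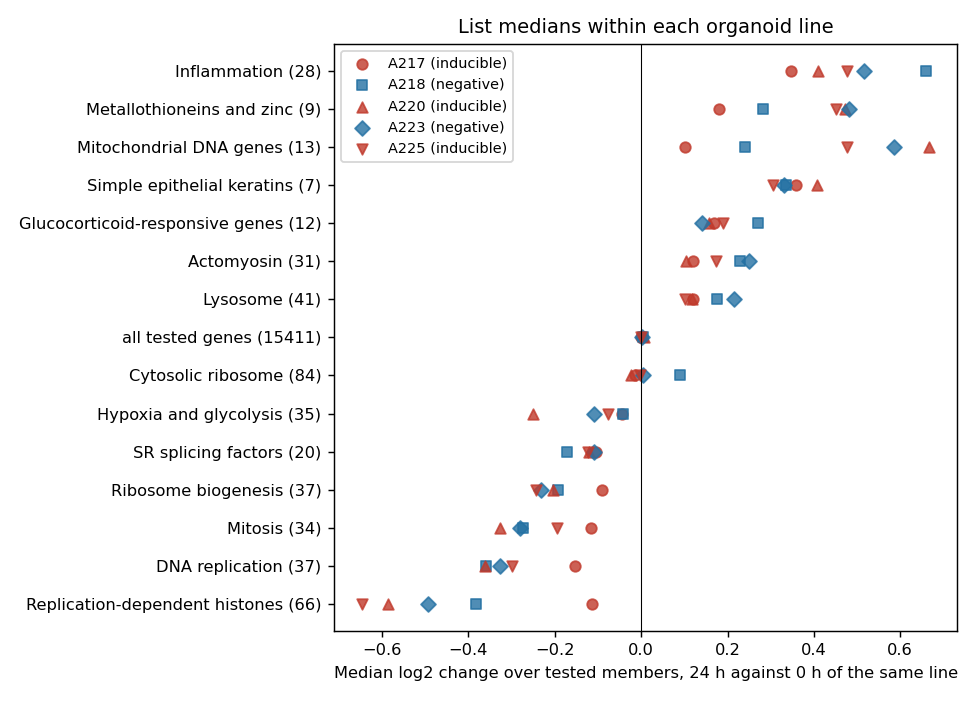
Each point is the median log2 change of a list's tested members (number in brackets) at 24 h against 0 h in 1 organoid line, red for inducible and blue for negative lines. Histone, replication, mitosis and ribosome biogenesis medians lay below 0 in all 5 lines, with A217 nearest 0, while inflammation, keratin and lysosome medians lay above 0 in all 5.

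Brakes and accelerators of the cycle moved in both directions. Among 17 inhibitors, cyclins and related genes 7 rose and 3 fell (median 0.09). That was 41.2% and 17.6%, against 21.0% and 17.8% of all tested genes. Cdkn1a, the p21 inhibitor, rose from 60.0 to 80.1 to 82.5 to 124 CPM, without overlap (0.65 ± 0.04, edgeR adjusted p = 2.4e-08). Cdkn2d, the p19 inhibitor, rose by 0.72 on the log2 scale, and Cdkn1b, the p27 inhibitor, changed by -0.23. The cyclins Ccnd3, Ccnd2 and Ccnd1 rose by 0.56, 0.34 and 0.13. Of 24 targets of p53, 7 rose, among them Perp, a desmosome-associated membrane protein (0.74 ± 0.06), and 3 fell (5 without A218), among them Gdf15, a stress hormone (-0.68 ± 0.09) and Gtse1 (-0.39 ± 0.05). These shares, 29.2% and 12.5%, lay near those of all tested genes. In the BCL2 family of cell death regulators 6 of 20 rose, led by Bcl2l15 (2.64 ± 0.27, from 0.427 to 2.51 CPM), and 4 fell (2 without A217, A223 or A225).

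Genes that build ribosomes fell as well, while few genes of the ribosome's own proteins were called. Of 37 ribosome biogenesis genes, 33 fell and none rose (median -0.19). Polr1b, the second largest subunit of RNA polymerase I, stood at 84.4, 85.7, 81.5, 86.4 and 76.2 CPM at 0 h and at 72.3, 63.3, 61.5, 62.6 and 55.5 CPM at 24 h, without overlap (-0.40 ± 0.04, edgeR adjusted p = 6.03e-07). Nolc1, a nucleolar chaperone, and Wdr12, a factor of large subunit assembly, changed by -0.28 ± 0.03 and -0.29 ± 0.03. Mycl and Myc, transcription factors that drive this programme, changed by -0.75 ± 0.08 and -0.17 ± 0.04. Of 84 cytosolic ribosomal protein genes 3 rose and 4 fell (median 0.01). Without A217, A218, A220 or A225 the risers numbered 0, 1, 8 and 1, and without A220 or A225 the fallers numbered 1. The largest of these changes were Rpl22l1 (0.26 ± 0.07), higher in 4 of 5 lines, and Rpl27 (-0.20 ± 0.06), lower in 4 of 5. Both calls, and that of Rpl3, were lost in some of the fits that left out 1 line. Of 20 SR splicing factors and their kinases 10 fell and 3 rose, and the falls included Srsf4 (-0.33 ± 0.05) and Srsf7 (-0.28 ± 0.04). No riser of that list passed when A223 was left out, or without pairing, and 1 passed without A218 or without A225.

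The single genes that rose furthest were not of these groups. Oprd1 (ENSMUSG00000050511.1, chromosome 4, 132110726 to 132144486), the delta opioid receptor, a G protein-coupled receptor of nervous tissue, stood at 4.99, 3.44, 3.57, 3.53 and 3.49 CPM at 0 h. At 4 h it stood at 32.0, 36.1, 47.5, 32.2 and 38.7 CPM and at 24 h at 56.9, 70.5, 84.9, 65.6 and 75.3 CPM. Every value at 24 h was more than 10 times the highest at 0 h, and the log2 change was 4.20 ± 0.11 (edgeR adjusted p = 4.1e-13).

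Vstm2b (ENSMUSG00000039257.11, chromosome 7, 40898328 to 40930594), an immunoglobulin-like membrane protein, went from near silence to a measurable level. Its 5 libraries at 0 h held 2 counts in all, those at 4 h 221 and those at 24 h 2144. The ratio of 24 h to 0 h, per total count, was 1126 (95% exact interval 311 to 9299, counting error only). Its levels at 24 h were 7.13, 7.38, 12.2, 9.83 and 6.83 CPM. Nmu (ENSMUSG00000029236.4, chromosome 5, 76333495 to 76363788), the neuropeptide neuromedin U, held 0 counts at 0 h, 128 at 4 h and 358 at 24 h. Against a floor of 3 counts over the 0 h group it was at least 125-fold higher at 24 h, and stood at 1.06, 1.96, 1.73, 0.934 and 1.51 CPM. Muc13, a transmembrane mucin, rose from 0.0949, 0.290, 0.0399, 0.0738 and 0.0168 CPM to 1.21, 1.83, 2.06, 2.26 and 1.29 CPM (4.11 ± 0.38, edgeR adjusted p = 8.18e-07), on 27 counts at 0 h and 430 at 24 h. Clca3a2, a secreted regulator of chloride channels, rose on 45 and 343 counts (3.03 ± 0.27).

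Nmu lies beside 2 other risers on chromosome 5. Tmem165 (ENSMUSG00000029234.13, chromosome 5, 76183880 to 76209245), a Golgi transporter needed for glycosylation, and Clock (ENSMUSG00000029238.11, chromosome 5, 76209868 to 76304792), the circadian transcription factor, are neighbours on opposite strands, and 1 protein-coding gene, Pdcl2, which was too low to be tested, lies between Clock and Nmu. Tmem165 stood at 102, 98.8, 92.6, 92.4 and 102 CPM at 0 h and 241, 375, 318, 290.3 and 387 CPM at 24 h. Clock stood at 98.9, 101, 91.5, 94.6 and 101 CPM at 0 h and 215, 303, 277, 264 and 331 CPM at 24 h. Neither gene's groups overlapped, and the log2 changes were 1.70 ± 0.07 (edgeR adjusted p = 1.72e-10) and 1.50 ± 0.06 (edgeR adjusted p = 3.83e-11). Both had moved most of the way by 4 h, with means of 229 and 233 CPM.

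Of all genes with a mean above 100 CPM, Eea1 (ENSMUSG00000036499.9, chromosome 10, 95940650 to 96045518), the tether of early endosomes, rose furthest. It stood at 251, 241, 224.6, 237 and 162 CPM at 0 h, with A225 lowest, and at 601, 815, 872, 795 and 632 CPM at 24 h (1.74 ± 0.07, edgeR adjusted p = 1.03e-10). Adgre5, an adhesion receptor, rose by 1.22 ± 0.05, Pdzk1ip1, a small membrane protein, by 1.48 ± 0.08, and Ifngr1, the ligand-binding chain of the interferon gamma receptor, by 1.08 ± 0.04. Wnt4, a secreted WNT ligand, rose from 52.3 to 70.8 to 118 to 171 CPM (1.15 ± 0.04), and Fgd3, an activator of CDC42, by 0.98 ± 0.07. Adgre5 overlaps Ddx39 on the opposite strand, by the spans of the whole genes. As no source names a strand setting for the counting, reads from exons that overlap could not be assigned to 1 gene of the pair. Whether exons overlap was not checked, for this pair or for the other overlapping genes named. Slc29a3, a nucleoside transporter of lysosomes and mitochondria, rose from 5.79 to 8.07 to 20.9 to 28.4 CPM (1.78 ± 0.06). Among scarcer genes Gng2, a G protein gamma subunit, rose by 2.55 ± 0.25, Pcp4l1 by 2.59 ± 0.36, Btbd17 by 1.70 ± 0.18 and Hspb1, a small heat shock protein and the next in rank, by 1.67 ± 0.08.

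**Figure D3:**
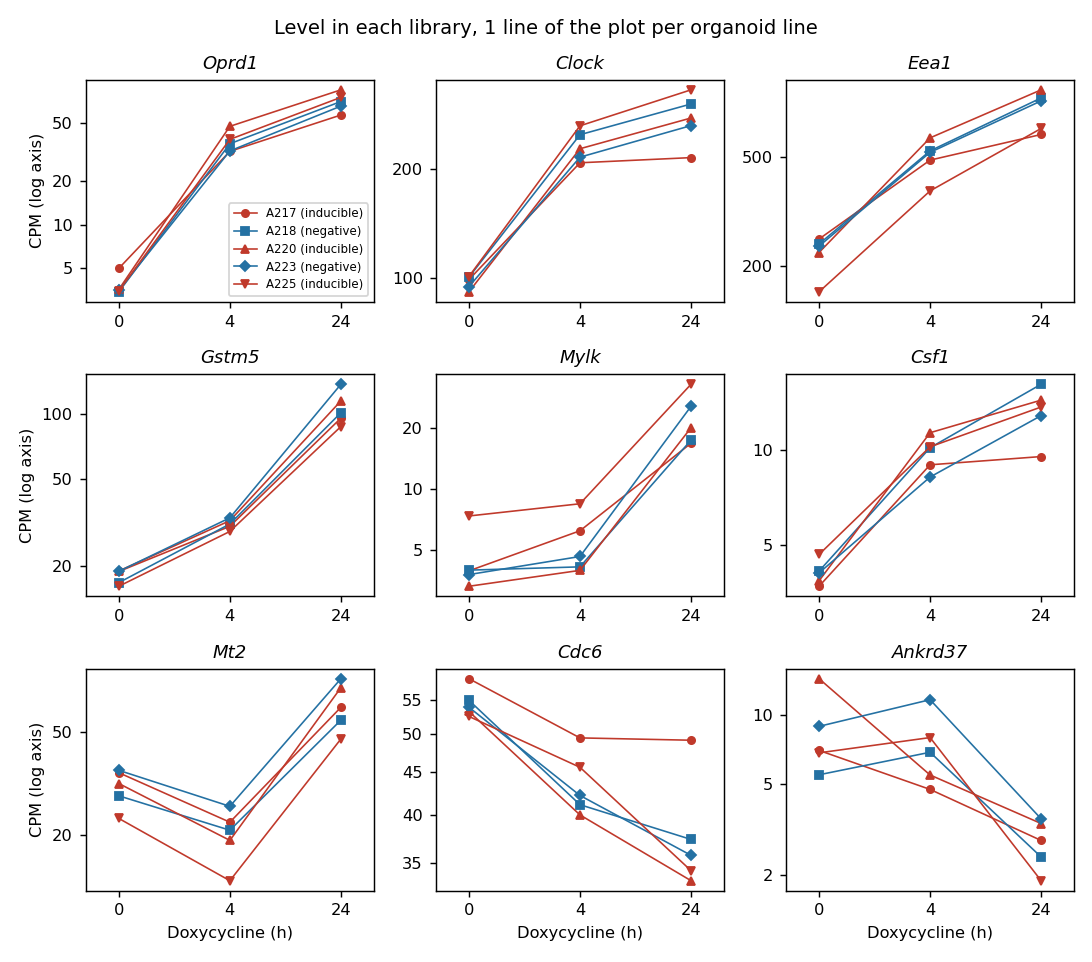
Each panel shows 1 gene's level in CPM (log axis, own range) in the 15 libraries at 0, 4 and 24 h of doxycycline, with the libraries of an organoid line joined, red for inducible and blue for negative lines. Oprd1, Clock, Eea1, Gstm5 and Csf1 were higher at 4 h than at 0 h in all 5 lines and higher again at 24 h, Mt2 was lower at 4 h than at 0 h, and Cdc6 and Ankrd37 ended below their 0 h level.

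Inflammatory genes rose as a group. Epithelial cells make cytokines and chemokines under the control of NF-κB, whose family also includes its own feedback inhibitors. Of 28 tested genes 20 rose and 1 fell (71.4% against 21.0% of all tested genes that rose), with a median log2 change of 0.49 and medians of 0.35 to 0.66 within lines. Unpaired, 13 rose. Csf1, the macrophage growth factor, stood at 3.70, 4.13, 3.85, 4.08 and 4.67 CPM at 0 h and 9.55, 16.2, 14.4, 12.9 and 13.7 CPM at 24 h, without overlap (1.70 ± 0.09, edgeR adjusted p = 2.6e-09). Ccl20, which draws lymphocytes and dendritic cells, rose from 22.6 to 37.7 to 41.7 to 83.5 CPM (0.92 ± 0.08), again without overlap. Ccl2, the monocyte chemokine, rose in every line, but its lines differed so much that the groups overlapped, at 2.82 to 11.9 and 6.49 to 32.2 CPM (1.12 ± 0.10). The neutrophil chemokines Cxcl1 and Cxcl2 rose by 0.76 and 1.22, and the cytokines Il1a, Il18, Il33 and Tnf by 1.50, 1.00, 0.44 and 0.61. Components and feedback inhibitors of NF-κB rose by less, among them Nfkb2 (0.48 ± 0.04), Relb (0.60), Tnfaip3 (0.48) and Nfkbia (0.33). The gene that fell was Nfkbiz, a nuclear cofactor (-0.53). The immune marker list summed to 1.99 to 2.93 CPM at 0 h and 1.31 to 2.12 CPM at 24 h, and none of its 3 tested genes rose.

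Interferon-stimulated and antigen presentation genes showed a smaller share, with 8 of 27 higher and 1 lower (5 higher without A218 or without A220, and 4 and 0 unpaired). These shares were 29.6% and 3.70%, against 21.0% and 17.8% of all tested genes. B2m, the light chain of MHC class I, rose from 125 to 149 to 166 to 216 CPM (0.41 ± 0.03) and Ifi27 rose by 0.60 ± 0.05. Mx1 fell (-0.46). Ifit1 and Isg15, classic induced genes, did not pass, at 0.37 and 0.54 (edgeR adjusted p = 0.46 and 0.135).

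Zinc and hormone-responsive genes rose. Metallothioneins bind zinc and copper and are induced by metals and glucocorticoids. Of 9 tested genes of the zinc list 7 rose and none fell (median 0.43). Mt2 stood at 34.9, 28.4, 31.7, 35.6 and 23.3 CPM at 0 h, at 22.5, 20.9, 19.1, 25.9 and 13.4 CPM at 4 h and at 62.4, 55.7, 74.2, 80.4 and 47.1 CPM at 24 h. The 4 h value was the lowest of the 3 in every line, and the 24 h values lay above all 0 h values (1.05 ± 0.07, edgeR adjusted p = 1.37e-08). Mt1 rose by 0.70 ± 0.04, the zinc exporter Slc30a1 by 0.48 ± 0.05, and the importers Slc39a10 and Slc39a8 by 0.43 and 0.54. In the glucocorticoid list 8 of 12 rose and none fell, 2 of them in the unpaired test. Sgk1, a kinase that regulates ion transport, stood at 10.8, 12.5, 10.2, 12.03 and 17.6 CPM at 0 h and 23.8, 31.9, 30.4, 30.6 and 42.0 CPM at 24 h, without overlap (1.33 ± 0.08). Dusp1, a phosphatase of MAP kinases, rose by 0.66 ± 0.06 and Zbtb16 by 1.46. Fkbp5, a sensitive target of the glucocorticoid receptor, did not pass at 0.06 (edgeR adjusted p = 0.36).

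Lipid and xenobiotic genes included some of the largest single rises. Of 29 PPAR targets and genes of fatty acid oxidation 10 rose and 2 fell (median 0.08, 5 and 0 unpaired). That was 34.5% and 6.90%, against 21.0% and 17.8% of all tested genes. Angptl4 (ENSMUSG00000002289.16, chromosome 17, 33773750 to 33781830), a secreted inhibitor of lipoprotein lipase, stood at 3.21, 7.07, 8.86, 8.32 and 7.69 CPM at 0 h and 17.0, 42.9, 40.0, 45.8 and 36.3 CPM at 24 h, with A217 lowest at both times (2.37 ± 0.07, edgeR adjusted p = 2.85e-12). Ephx2, the soluble epoxide hydrolase, went from 5.64, 7.96, 9.76, 11.3 and 11.1 CPM to 20.5, 38.7, 42.2, 51.7 and 44.3 CPM (2.09 ± 0.06). Plin2, a coat of lipid droplets, rose by 0.36 ± 0.05. In cholesterol and fatty acid synthesis 14 of 34 rose (41.2%) and 6 fell (17.6%). Without A225, 9 rose, and unpaired 6 rose and 1 fell. Insig1, a brake on sterol synthesis, rose by 0.69 ± 0.06, and Acaca, which makes malonyl-CoA, changed by -0.26 ± 0.04.

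Gstm5 (ENSMUSG00000004032.10, chromosome 3, 107895821 to 107898686), a glutathione transferase, had the smallest adjusted p of all tested genes. It stood at 18.8, 16.7, 18.9, 18.8 and 16.1 CPM at 0 h, at 31.1 CPM on average at 4 h, and at 95.7, 101, 115, 137 and 87.5 CPM at 24 h (2.58 ± 0.06, edgeR adjusted p = 2.79e-13). Of 24 transferases 6 rose and 5 fell, shares near the 21.0% and 17.8% of all tested genes, with Gstt1 at 0.59 ± 0.06, Gstt3 at 0.34 ± 0.03 and Gstm1 at -0.24 ± 0.03. Gstm genes are similar in sequence, so how reads divided among them is uncertain. NRF2 is the transcription factor that answers oxidants and electrophiles. Of 27 of its targets 11 rose and 5 fell (6 and 1 unpaired, and 3 fell without A218 or without A223). Prdx1, a peroxidase, rose from 1254 to 1473 to 1778 to 2061 CPM (0.50 ± 0.04), Abcc4, an efflux pump, by 0.57 ± 0.04, and Hmox1, heme oxygenase, by 0.65 ± 0.07. Nqo1, a quinone reductase often used as a readout of NRF2, fell (-0.46), as did the gene of NRF2 itself, Nfe2l2 (-0.25). Gclc and Gclm, the glutathione synthesis subunits, did not pass, at 0.13 and -0.00 (edgeR adjusted p = 0.0523 and 0.948).

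The antioxidant response element core, TGACNNNGC on either strand, was found in 10 of 21 matched windows of NRF2 targets (47.6%) and in 16.4% of tested genes with a window. The Prdx1 stretch is shown because Prdx1 was the only called target whose match, with 30 bases on either side, lay within the 250 upstream bases and outside all exons. The capitals mark the core read on the strand opposite the gene, and it starts 133 bases before the start site (chr4:116685436-116685504, plus strand).

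Prdx1: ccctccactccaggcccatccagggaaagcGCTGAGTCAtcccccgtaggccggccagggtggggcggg

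Epithelial structure shifted upward. Simple epithelia are braced by keratin filaments, sealed by claudins and shaped by actomyosin. Of 7 keratins 6 rose and none fell (median 0.33, 3 unpaired). Krt8 stood at 3691, 3896, 4296, 3779 and 4431 CPM at 0 h and 5306, 5953, 5797, 6089.5 and 5749.6 CPM at 24 h, without overlap (0.53 ± 0.05, edgeR adjusted p = 1.52e-06). Its partner Krt18 rose by 0.50 ± 0.05, Krt20 by 0.56 ± 0.09 and the duct keratins Krt7 and Krt19 by 0.28 and 0.18. Keratin genes share sequence with pseudogenes, which can take part of their reads. In claudins and tight junctions 11 of 23 rose and 1 fell, with Cldn4 at 0.60 ± 0.05 and the adaptor Cgn at 0.33 ± 0.03. In actomyosin 18 of 31 rose and 3 fell, 1 of them without A220 (median 0.17). The changes in that list ran from -1.32 to 2.33. Mylk, myosin light chain kinase, stood at 3.97, 4.00, 3.33, 3.80 and 7.37 CPM at 0 h and 16.8, 17.4, 19.98, 25.4 and 32.6 CPM at 24 h, without overlap (2.33 ± 0.12). Nebl, a thin filament protein, rose by 2.13 ± 0.21, and Vil1 and Ezr, of microvilli, by 0.40 ± 0.04 and 0.30 ± 0.03. Myo1a, a brush border myosin given further below, fell. Fibroblast and stellate markers summed to 0.342 to 4.05 CPM at 0 h and 0.372 to 5.68 CPM at 24 h, and the 1 tested gene of that list rose. The part of such cells in these rises was not tested.

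Secreted matrix and proteases divided. Of 26 genes 13 rose and 6 fell. Fn1, fibronectin, rose from 17.1 to 36.5 to 41.7 to 98.7 CPM (1.44 ± 0.11), Plau, urokinase, by 0.88 ± 0.06 and Col4a2, of basement membrane collagen, by 0.50 ± 0.05. The matrix proteases Adamts1 and Adamts15 fell (-1.10 ± 0.16 and -0.96 ± 0.11).

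Lysosomal and membrane genes rose more often than they fell. Of 41 lysosome genes 23 rose (56.1%) and 3 fell (7.32%), against 21.0% and 17.8% of all tested genes. Their median was 0.16, with 0.10 to 0.22 within lines, and unpaired 15 rose and 1 fell. Gm2a, the activator of ganglioside breakdown, rose by 0.49 ± 0.04, Atp6v0d1, of the proton pump, by 0.47 ± 0.04, Ctsl, a cathepsin, by 0.40 ± 0.04 and Sqstm1, an autophagy receptor, by 0.35 ± 0.03. Of 26 tetraspanins and TM4SF genes 11 rose (42.3%) and 3 fell (11.5%), 8 and 1 of them unpaired. Tspan8 stood at 565 to 702 and 927 to 1081 CPM (0.66 ± 0.05), and Cd82 changed by 0.53 ± 0.04.

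Of the 22 genes of the duct identity list 7 rose and 5 fell, 2 and 0 unpaired, and 3 fell without A225. These shares were 31.8% and 22.7%, against 21.0% and 17.8% of all tested genes. Members of each kind moved both ways. Among surface and secreted products, the risers included Spp1, osteopontin, at 384 to 633 and 567 to 935 CPM (0.50 ± 0.05) and Muc1, a membrane mucin, at 0.21 ± 0.04, and the adhesion protein Epcam fell (-0.14 ± 0.03). Of the transcription factors Gata6 (0.44 ± 0.05), Prox1 (0.46) and Foxa3 (0.24) rose, and Pdx1 (-0.32 ± 0.04), Onecut1 (-0.24) and Hnf4a (-0.11) fell. Sox9, the duct progenitor factor, did not pass at 0.18 (edgeR adjusted p = 0.0744). In ion and water transport 9 of 20 rose and 4 fell (3 and 2 unpaired). The water channels moved apart, with Aqp1 at 0.50 ± 0.05 and Aqp5 at -0.48 ± 0.05. The potassium channel Kcnn4 and the channel subunit Kcne3 fell (-0.62 ± 0.05 and -0.48 ± 0.05), and Cftr, the chloride and bicarbonate channel, did not pass at -0.34 (edgeR adjusted p = 0.067).

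Most protein-coding transcripts of mitochondrial DNA rose. The mitochondrial genome encodes 13 proteins of the respiratory chain and ATP synthase, made by the mitochondrion's own ribosomes. Of these 13 genes 11 rose, mt-Co3 fell and mt-Nd3 did not pass (median 0.35). mt-Nd2, a subunit of complex I, stood at 68.5, 70.7, 60.4, 67.1 and 76.2 CPM at 0 h and 86.4, 93.7, 133, 117 and 136 CPM at 24 h, without overlap (0.71 ± 0.09, edgeR adjusted p = 1.59e-05). mt-Cytb, of complex III, stood at 311, 237, 231, 220.2 and 313 CPM at 0 h and 337, 333, 465, 489 and 523 CPM at 24 h (0.71 ± 0.11, edgeR adjusted p = 0.000102). Its log2 changes in the 5 lines were 0.12, 0.49, 1.01, 1.15 and 0.74, smallest in A217. mt-Co3, a subunit of complex IV, changed by -0.18 ± 0.07 (edgeR adjusted p = 0.0363), with 0.01, -0.57, -0.13, -0.11 and -0.10 in the lines, so that A218 made most of the fall. That call was lost without A218, A220 or A225, and unpaired, and 8 rises passed without A220 or without A223. Copies of mitochondrial DNA in the nuclear genome can share these reads.

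The summed share of counts from mitochondrial DNA was 0.829% ± 0.0803 before doxycycline (SD over 5 lines), 0.956% ± 0.0460 after 4 h and 0.947% ± 0.104 after 24 h. It was higher at 24 h than at 0 h in 4 of 5 lines, by 0.118 percentage points on average, and did not pass an exact two-sided sign-flip test over the 5 pairs (p = 0.1875, with 0.0625 the smallest possible). A217 was the line without a rise, at 0.923% and 0.886%. mt-Co1, which holds most of these counts, changed by 0.25 ± 0.08.

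**Figure D4:**
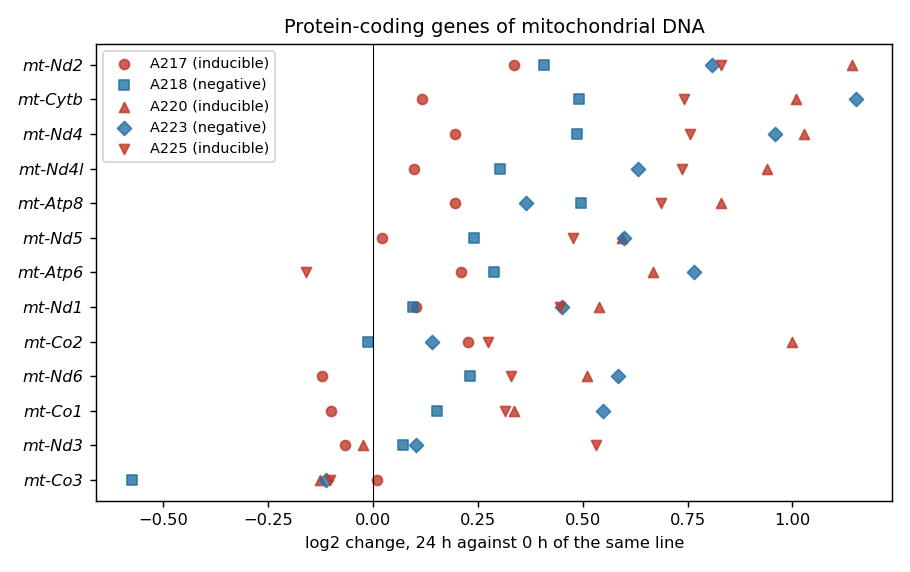
Each row is 1 of 13 protein-coding genes of mitochondrial DNA and each point the log2 change at 24 h against 0 h in 1 organoid line, red for inducible and blue for negative lines. mt-Nd2, mt-Cytb and mt-Nd4 lay above 0 in all 5 lines with A217 lowest, and mt-Co3 lay below 0 in 4 of 5.

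Nuclear genes for mitochondria did not move as one. Of 76 nuclear genes of the respiratory chain 18 rose and 5 fell, shares of 23.7% and 6.58% against 21.0% and 17.8% of all tested genes, and 7 rose when A218 was left out, 11 without A217, A220 or A225, and 5 without pairing. Without A220, 2 fell. Of 77 mitochondrial ribosomal protein genes 22 fell and 4 rose (median -0.04), with Mrpl12 at -0.26 ± 0.04 and Mrps18b at -0.24 ± 0.04. Unpaired, 7 fell, and the risers numbered 0 to 3 when 1 line was left out. Of 20 mitochondrial chaperones and proteases 7 fell and 1 rose. Hspd1, the HSP60 chaperonin, fell from 886 to 1037 to 726 to 896 CPM (-0.30 ± 0.03), Lonp1, the matrix protease, changed by -0.25 ± 0.03, and the riser was Grpel2, a nucleotide exchange factor (0.40 ± 0.04). Hspd1 and Hspe1 overlap in the annotation, on opposite strands. In fission and fusion Mtfp1, a fission protein of the inner membrane, fell (-0.90 ± 0.18), and Mtfr1l rose (0.32 ± 0.03). Of 23 citric acid cycle genes 6 rose and 3 fell, and all 23 changes lay between -0.11 and 0.18. Without A218, A220 or A225, 2 rose.

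Targets of ATF4, the factor of the integrated stress response, changed in both directions. Of 37 genes 9 fell and 3 rose (24.3% and 8.11%, against 17.8% and 21.0% of all tested genes, and 5 rose without A223). Their median was -0.08, and within lines -0.10, -0.03, -0.20, -0.08 and 0.04, above 0 in A225. Stc2, a secreted glycoprotein, fell from 46.8 to 86.6 to 29.0 to 53.2 CPM (-0.62 ± 0.06), Gdf15 changed by -0.68 ± 0.09 and the folate enzymes Shmt2 and Mthfd1l by -0.34 ± 0.04 and -0.26 ± 0.04. Ddit4, an inhibitor of mTORC1 that also stands in the glucocorticoid list, rose (0.32 ± 0.06). ER chaperones moved little, with 4 of 22 higher, among them Herpud1 (0.45 ± 0.05), and 1 lower, Hsp90b1 (-0.12 ± 0.03).

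Hypoxia and glycolysis genes provided several of the largest falls. Cells short of oxygen raise glycolytic enzymes, the lactate exporter and the prolyl hydroxylases that feed back on HIF. Of 35 genes 12 fell and 1, Bnip3l, rose (median -0.09, 6 and 1 unpaired, and 3 rose without A220). Ankrd37, a small HIF target, stood at 7.001, 5.48, 14.4, 8.91 and 6.83 CPM at 0 h and 2.84, 2.40, 3.36, 3.52 and 1.89 CPM at 24 h, without overlap (-1.58 ± 0.22, edgeR adjusted p = 3.44e-05). Ankrd37 overlaps Ufsp2 and Lrp2bp on the opposite strand. Slc16a3, the lactate exporter MCT4, stood at 3.57, 5.77, 17.1, 8.91 and 5.83 CPM at 0 h and 1.23, 2.19, 3.83, 5.78 and 1.71 CPM at 24 h, with overlapping groups (-1.52 ± 0.35, edgeR adjusted p = 0.0028). The glycolytic enzymes Pfkp and Hk2 changed by -0.52 ± 0.05 and -0.49 ± 0.06, the prolyl hydroxylase Egln1 by -0.43 ± 0.05 and Ldha by -0.18. The glycolytic genes Gapdh (0.00), Pgk1 (-0.01), Pkm (-0.01) and Eno1 (-0.04) did not pass. Vegfa and Car9, other HIF targets, did not pass either (-0.06 and -0.07).

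Further falls came from regulators and receptors. Myb, a transcription factor of progenitor cells, went from 5.04 to 6.56 to 1.98 to 5.30 CPM (-1.07 ± 0.14), and Bcl11b, a zinc finger factor, changed by -0.97 ± 0.14. Trib2, a pseudokinase, changed by -1.09 ± 0.17, Far2, which makes fatty alcohols, by -1.23 ± 0.26, Myo1a, a brush border myosin, by -1.15 ± 0.25, Sult1c2, a sulfotransferase, by -0.94 ± 0.08, Slfn2 by -0.95 ± 0.11 and Slurp1 by -0.92 ± 0.17. Tfrc, the transferrin receptor that imports iron, fell from 147 to 193 to 99.6 to 144 CPM (-0.55 ± 0.06). Trim6, next in rank, changed by -0.89 ± 0.15.

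Lists of growth factor pathways held calls in both directions, several at shares near the 21.0% higher and 17.8% lower of all tested genes. WNT stood at 22.7% and 18.2%, the EGF receptor family at 23.1% and 15.4% and Notch at 16.7% and 27.8%. In TGF-β and BMP 4 of 25 rose and 8 fell (5 fell without A223 or without A225), in a medium that holds a TGF-β receptor inhibitor and Noggin. Tgfb3, a ligand, rose (0.41 ± 0.04), and the BMP targets Id1 and Id3 fell (-0.33 ± 0.05 and -0.61 ± 0.07). In WNT signalling 5 of 22 rose and 4 fell (3 rose without A225), with the ligands Wnt7b and Wnt10a at 0.41 ± 0.04 and 1.44 ± 0.24. Notch had 3 of 18 higher, with the ligand Dll1 at 0.91 ± 0.08 and the modifier Lfng at 0.57 ± 0.08, and 5 lower, with the ligand Jag2 at -0.29 ± 0.04 and the feedback inhibitor Nrarp at -0.28 ± 0.04. YAP and TEAD had 7 of 21 higher, led by the receptor kinase Axl (1.11 ± 0.08), and 3 lower, among them Tead2 (-0.42 ± 0.04) and F3, tissue factor (-0.42 ± 0.04). Unpaired, 2 of the 7 passed. EGF receptor ligands moved in both directions, with Hbegf at 0.46 ± 0.05, Btc at -0.25 ± 0.04 and Nrg1 at -0.42 ± 0.08, and 3 of 13 genes of that list rose and 2 fell (4 fell without A220). Of 28 ERK feedback and immediate early genes 3 rose and 7 fell, with Klf4 at -0.46 ± 0.06 and Spry2 at -0.19 ± 0.03. The proteasome held 5 risers and 1 faller of 46, with the activator subunits Psme1 and Psme2 at 0.18 ± 0.03 and 0.25 ± 0.04.

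Other clock genes changed in both directions. Clock and Arntl form the activator of the circadian loop, Per and Cry its repressors. Of 22 clock genes 5 rose and 6 fell, shares of 22.7% and 27.3%, and 2 rose when A218 was left out, 3 without A220 or without A223 and 1 unpaired. Arntl did not pass (0.11, edgeR adjusted p = 0.098), nor did the output genes Dbp (-0.05) and Nr1d1 (-0.07). Bhlhe40, a repressor, fell from 50.4 to 82.2 to 32.3 to 46.6 CPM (-0.64 ± 0.09), and Arntl2 and Rora changed by -0.37 ± 0.06 and 0.36 ± 0.06. The E-box CACGTG, bound by the Clock and Arntl pair, was in 5 of 18 matched windows of clock genes (27.8%) and in 11.1% of tested genes with a window. The 2 called repressors of smallest adjusted p with an E-box outside exons are shown because both fell while Clock rose, with the E-box in capitals. Cry1 changed by -0.18 and Ciart by -0.52. The stretches lie at chr10:85185079-85185144 and chr3:95882309-95882374, both on the minus strand, with the E-box starting 60 and 116 bases before the start site.

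Cry1: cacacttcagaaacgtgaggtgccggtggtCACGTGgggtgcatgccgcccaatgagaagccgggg
Ciart: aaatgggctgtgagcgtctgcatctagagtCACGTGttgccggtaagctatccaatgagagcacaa

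Glycan enzymes, the class to which CA19-9 synthesis belongs, were near the background in the pooled lines, with 15 of 54 higher (27.8%) and 11 lower (20.4%). Gcnt3, a core branching enzyme of mucin glycans, stood at 84.7, 115, 139, 139 and 125 CPM at 0 h and 63.0, 80.1, 97.2, 77.0 and 88.1 CPM at 24 h (-0.57 ± 0.07, edgeR adjusted p = 6.97e-06). St3gal4, a sialyltransferase, changed by -0.30 ± 0.04, and Gcnt2 and Galnt10 by 0.30 ± 0.03 and 0.26 ± 0.03. Of 4 tested mucins 2 rose, Muc13 and Muc1.

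**Figure D5:**
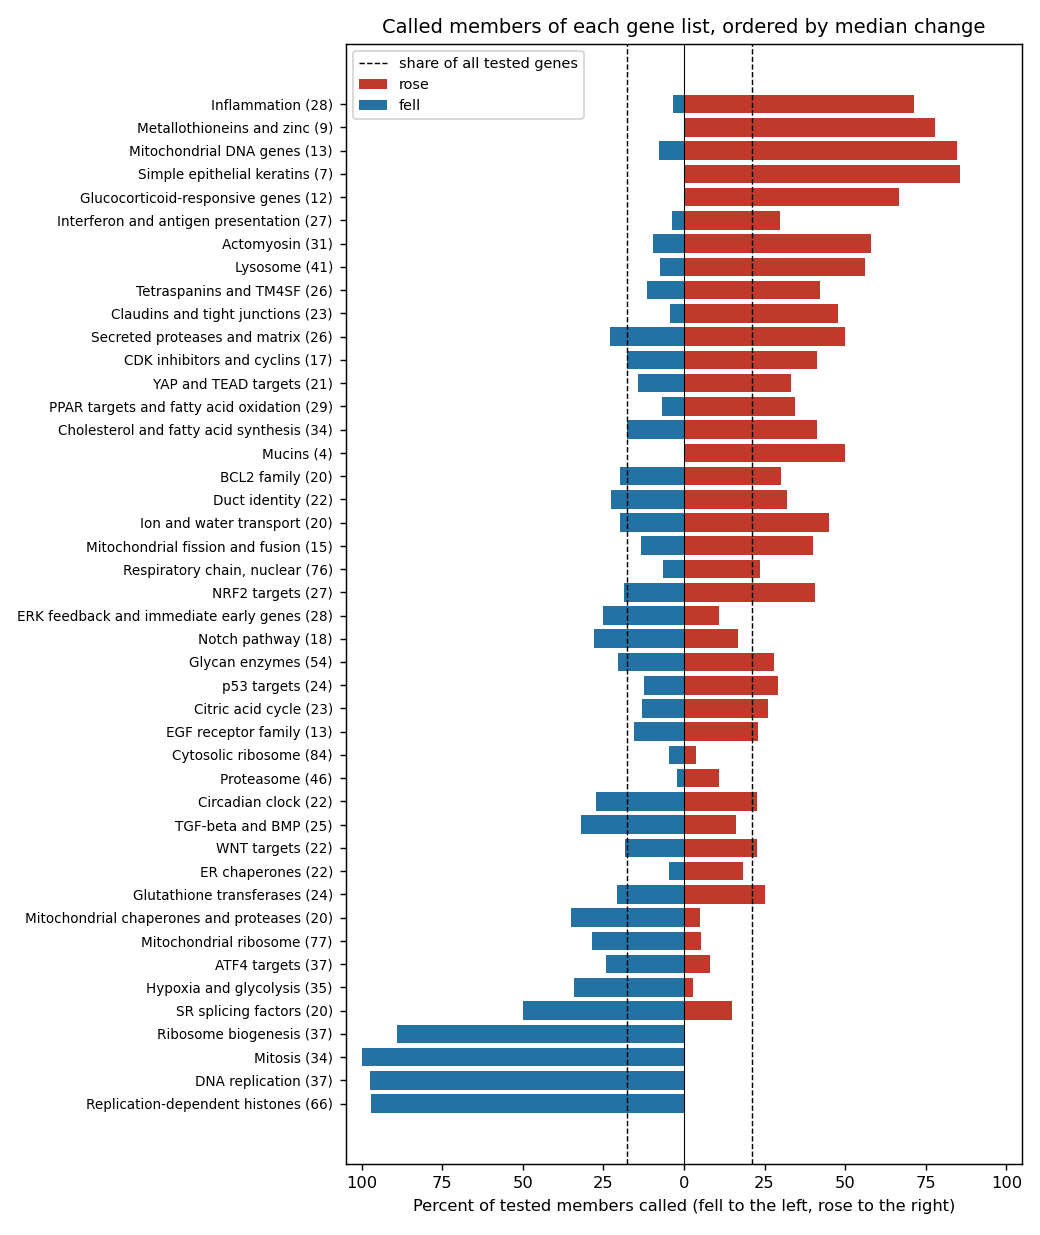
Bars give the percent of each list's tested members (number in brackets) that fell, to the left, and rose, to the right, ordered by the list's median log2 change, and the dashed lines give the 17.8% and 21.0% of all tested genes. The mitosis, replication, histone and ribosome biogenesis bars reach at least 89.2% on the left, and the keratin, mitochondrial DNA and zinc bars at least 77.8% on the right.

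Whether the 24 h response differed between the genotypes was tested by the interaction of time and genotype. It passed for 1 of 15411 genes (0.00649%), and for 1274 at an unadjusted p below 0.05. That gene was Gm9845, a processed pseudogene on chromosome 3 (39358306 to 39358903) that was not called in the pooled comparison. It stood at 0, 1.47, 0, 0.388 and 0.0504 CPM at 0 h and at 0.355, 0.114, 0.600, 0 and 1.05 CPM at 24 h, lower in both negative lines and higher in the 3 inducible ones (log2 difference 8.94 ± 1.16, edgeR adjusted p = 0.0460). DESeq2 called 4 genes and limma-voom none, and no gene passed when any 1 line was left out. With 3 lines against 2, a miss does not show that the genotypes respond alike.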

How the data were processed

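Total RNA of 15 organoid cultures, depleted of ribosomal RNA, was sequenced in paired-end TruSeq libraries, per the labels' protocols. The tools named in the submitters' processing notes are kallisto 0.43.1, DESeq2 1.18.1 and DESeq, and the build is GRCm38; no source used here gives a strand setting. The deposited files hold estimated counts per transcript, not normalised, and TPM values, per the file headers. Mouse estimated counts were summed per gene with GENCODE M21 and rounded; 22 added sequences were left out, as were 1295 transcripts without a match (0.556 to 0.593% of counts). This left 34547 genes. Deposited TPM values served only in alternatives, as weights for an effective length and for the mitochondrial share.

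Genes were tested with the quasi-likelihood F test of edgeR 4.0.16 in R 4.3.3, after TMM scaling and edgeR's filter on low counts. The model was fitted to all 15 libraries with terms for line, 4 h and 24 h, 8 residual degrees of freedom and a biological coefficient of variation of 0.059. Adjustment by Benjamini and Hochberg ran over 15411 genes, and a gene was called below 0.05. The genotype test added interaction terms. Single values were compared with an exact sign-flip permutation test over the 5 pairs. Each line was sampled at all times, which pairs the libraries. Deviations from the mean of each genotype and hour were correlated within a line, at 0.364 to 0.454 in inducible lines and 0.239 to 0.323 in negative lines. With only 2 negative lines their deviations mirror each other, so both give the same values. The ranges of the genotypes are therefore not comparable. No library was a copy of another of the same hour. Alternatives were no replicate block, only the 10 libraries, equal weights for genotypes, DESeq2 1.42.0, limma-voom 3.58.1 with a random line, median-of-ratios scaling, no filter, at least 1 CPM in 5 libraries, an effective length offset, a correction for GC content and length, and leaving out each line. Ratios of few counts have 95% exact intervals, and a group at 0 was set to a floor of 3 counts; reads carry no molecular identifiers, so both cover counting error only.

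Named genes were the 15 largest changes per direction with a mean of 1 CPM or more and 1 sign in all 5 lines (protein-coding, not predicted), the 8 largest above 100 CPM, up to 4 called members of each of 44 lists by smallest p, and 3 called genes under 1 CPM; the next in rank was added. Other genes were named from the lists after their values were seen. Some genes that this rule names are not reported here. The members and lists were chosen with earlier results of these data known, so lists are described by counts and medians beside all tested genes, with no test of their own.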

Additional observations from a re-analysis of the deposited data

Results flagged for a closer look

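In 8 of the 204 named genes, 1 line's log2 change at 24 h lay far from the other 4. Among sets of 5 values chance flags about 1 in 20. Line A217 had the smallest fall of Cdc6 (-0.246), Polr1b (-0.224) and Bub1b (-0.125). Line A223 had the largest fall of Gcnt3 (-0.856) and Btc (-0.429), and the only fall of Rpl22l1 (-0.0574). Nsdhl, an enzyme of cholesterol synthesis, rose most in A225 (0.493), and Atp5e, of ATP synthase, rose most in A218 (0.278).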

How the results depend on the processing

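The direction of every named gene was kept in every alternative in which it was tested. Named genes were chosen as called in these same data, many with 1 sign in all 5 lines. Few reversals could therefore occur, and the kept directions are no separate support. Dropping the replicate block moved the count of called genes from 5981 to 3132, of which 3121 were among the 5981, and 34 of the 204 named genes lost their call. The other alternatives called 4809 (effective length offset) to 6630 (GC and length correction), and leaving out 1 line called 4777 to 5510. In every fit without 1 line, 3915 of the 5981 (65.5%) were called, and none was called in the opposite direction in those fits. Of the named genes 3 were not tested under the filter of 1 CPM. The genotype test, with 1 gene, called 0 with no replicate block, with limma-voom and with the effective length offset, 4 with DESeq2, 32 with no filter and 0 in every fit without 1 line. The mean rise of the mitochondrial share ran from 0.0860 to 0.157 percentage points without 1 line, and was 0.217 by TPM. A call depends on how much the changes with time varied between 5 lines, and genes under 1 CPM rest on few counts.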
